A study of Mus musculus with 8 samples.

Results

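Lipogenic regulators and enzymes are the genes through which the liver makes fatty acids from carbohydrate. The set was chosen by gene symbol and holds 10 genes: Srebf1, Mlxipl, Thrsp, Acly, Acaca, Acacb, Fasn, Scd1, Elovl6 and Pnpla3. All 10 were found among the 24662 features of the CMV table and among the 27261 features of the αSMA table. All 10 also reached the mean of 1 FPKM (fragments per kilobase of transcript, scaled by mapped fragments) that was required for testing in each arm.

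RNA was measured in 8 mouse liver libraries, in 4 groups of 2. AAV6-CMV-NC and AAV6-αSMA-NC were the controls, and AAV6-CMV-shThbs2 and AAV6-αSMA-shThbs2 carried a short hairpin RNA against Thbs2, the gene of the matricellular protein thrombospondin-2, delivered with AAV6, an adeno-associated virus. The CMV promoter is active in many cell types, and αSMA is the smooth muscle actin of activated hepatic stellate cells. The arms also differed in platform and provider (Biomarker Technologies with the HiSeq2500 for CMV, Frasergen with the DNBSEQ-T7 for αSMA), and these cannot be told apart from the vector. Replicates 1 and 2 form the CMV groups and replicates 3 and 4 the αSMA groups. The series text speaks of separate mice. Strain, age, sex and any liver injury are not given in the sources used here.

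In hepatocytes, insulin raises the transcription and processing of SREBP-1c, the product of Srebf1, and sugar metabolites activate ChREBP, the product of Mlxipl. Both transcription factors act on the genes of fatty acid synthesis. Citrate is cleaved to acetyl-CoA, carboxylated to malonyl-CoA, built into palmitate, and then elongated and desaturated before it is stored in triglyceride. Transcripts of Mlxipl, Thrsp, Acaca and Elovl6 rose with the hairpin in the αSMA arm, where 13.3% of all features rose and 22.8% fell. None of the 10 passed the test in the CMV arm, where 0.0183% of all features did, and Srebf1 and Pnpla3 had the lowest log2 changes. The FPKM of Acaca went from 13.1 ± 0.856 to 39.8 ± 6.12 (SD, n = 2) in the αSMA arm, and that of Srebf1 from 71.1 ± 4.19 to 31.0 ± 5.79 (SD, n = 2) in the CMV arm without passing.

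The promoter windows of Srebf1 and Fasn, and of the genes with the smallest p in each direction in each arm (Mlxipl, Acaca and Acacb beside Srebf1), show which of the motifs read by lipogenic factors lie next to these start sites. The sequences are from RefSeq on GRCm38.p6, from 250 bases before to 50 bases after an annotated start, and are written 5′ to 3′ on the strand of the gene. Capitals mark exact matches on either strand to TCACNCCAC (a form of the SREBP element), CACGTG (the E-box read by USF and, as a pair, by ChREBP), CCAAT (NF-Y) or GGGCGG (the Sp1 GC box). Srebf1 has 3 windows, at chr11:60222532-60222831, chr11:60220578-60220877 and chr11:60210422-60210721 on the minus strand. Mlxipl has 2 on the plus strand, at chr5:135089640-135089939 and chr5:135106641-135106940. Fasn lies at chr11:120824498-120824797 on the minus strand, Acaca at chr11:84195188-84195487 and Acacb at chr5:114165268-114165567, both on the plus strand.
Srebf1 start 1: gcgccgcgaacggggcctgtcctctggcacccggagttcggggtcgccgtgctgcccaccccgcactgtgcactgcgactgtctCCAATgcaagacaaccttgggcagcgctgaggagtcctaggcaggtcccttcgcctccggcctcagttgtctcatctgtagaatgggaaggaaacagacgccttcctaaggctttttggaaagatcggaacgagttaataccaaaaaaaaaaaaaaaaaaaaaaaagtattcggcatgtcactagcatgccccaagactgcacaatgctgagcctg
Srebf1 start 2: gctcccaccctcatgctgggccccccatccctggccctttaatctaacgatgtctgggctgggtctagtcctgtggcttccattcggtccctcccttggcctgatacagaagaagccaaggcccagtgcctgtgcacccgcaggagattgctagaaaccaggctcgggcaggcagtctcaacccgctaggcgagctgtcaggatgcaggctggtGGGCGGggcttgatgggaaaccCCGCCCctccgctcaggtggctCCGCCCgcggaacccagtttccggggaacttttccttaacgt
Srebf1 start 3: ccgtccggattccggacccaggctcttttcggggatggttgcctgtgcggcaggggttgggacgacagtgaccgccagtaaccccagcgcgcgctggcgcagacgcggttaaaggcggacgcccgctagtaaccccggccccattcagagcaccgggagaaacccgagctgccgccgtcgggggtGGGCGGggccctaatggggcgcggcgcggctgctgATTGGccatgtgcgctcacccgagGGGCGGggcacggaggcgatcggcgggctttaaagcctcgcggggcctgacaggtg
Mlxipl start 1: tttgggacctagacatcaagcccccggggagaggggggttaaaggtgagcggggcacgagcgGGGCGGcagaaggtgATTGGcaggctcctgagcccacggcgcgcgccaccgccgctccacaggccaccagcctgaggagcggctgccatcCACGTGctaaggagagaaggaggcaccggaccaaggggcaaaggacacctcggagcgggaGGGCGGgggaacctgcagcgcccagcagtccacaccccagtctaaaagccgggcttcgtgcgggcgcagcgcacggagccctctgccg
Mlxipl start 2: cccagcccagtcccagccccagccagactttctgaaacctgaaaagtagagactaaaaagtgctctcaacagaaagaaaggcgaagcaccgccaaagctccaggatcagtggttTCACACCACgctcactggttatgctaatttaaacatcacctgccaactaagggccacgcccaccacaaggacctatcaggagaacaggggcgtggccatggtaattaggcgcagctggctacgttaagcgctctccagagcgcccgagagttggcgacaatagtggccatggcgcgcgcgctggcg
Fasn: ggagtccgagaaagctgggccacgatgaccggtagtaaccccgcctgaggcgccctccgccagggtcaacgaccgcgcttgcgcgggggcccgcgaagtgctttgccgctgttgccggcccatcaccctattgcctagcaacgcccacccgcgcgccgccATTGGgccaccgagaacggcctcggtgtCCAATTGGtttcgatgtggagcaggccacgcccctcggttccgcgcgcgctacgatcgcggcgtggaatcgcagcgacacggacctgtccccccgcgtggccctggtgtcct
Acaca: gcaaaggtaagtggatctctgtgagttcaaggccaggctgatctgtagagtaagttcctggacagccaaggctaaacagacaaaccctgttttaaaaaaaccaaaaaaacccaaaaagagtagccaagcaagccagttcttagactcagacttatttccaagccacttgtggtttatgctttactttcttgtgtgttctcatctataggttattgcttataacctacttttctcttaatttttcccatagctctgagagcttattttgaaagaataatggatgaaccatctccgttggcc
Acacb: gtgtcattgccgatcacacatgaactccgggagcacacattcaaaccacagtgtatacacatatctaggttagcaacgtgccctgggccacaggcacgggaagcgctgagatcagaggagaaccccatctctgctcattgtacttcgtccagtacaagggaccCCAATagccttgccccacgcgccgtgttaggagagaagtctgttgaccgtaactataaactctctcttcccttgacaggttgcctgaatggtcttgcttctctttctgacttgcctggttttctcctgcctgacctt

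In GENCODE M21 on GRCm38 the minus strand carries Srebf1 (chr11:60199089-60222581), Acly (chr11:100476353-100528000), Fasn (chr11:120805846-120824547), Thrsp (chr7:97412938-97417730) and Scd1 (chr19:44394455-44407879). The plus strand carries Mlxipl (chr5:135089890-135138382), Elovl6 (chr3:129532355-129638495), Pnpla3 (chr15:84167837-84187236) and both carboxylases. The windows differ in what they hold. Fasn carries 3 CCAAT matches, at -90, -62 and -59 bases from the start, of which the last pair overlaps on opposite strands. The upstream Mlxipl window holds a CACGTG at -98 with CCAAT and GGGCGG beside it, and its downstream window holds the sole TCACNCCAC, at -136. No match lies in the Acaca and Elovl6 windows. Both carboxylase windows start downstream of the gene's own outermost start, since Acaca spans chr11:84129672-84401651 and Acacb chr5:114146535-114250761.

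In all, 12 windows of 9 of the 10 genes were searched. CCAAT was found in 8 windows of 7 genes, against 37.4% of all 32851 windows. GGGCGG was found in 5 windows of 4 genes, against 35.7%. CACGTG and TCACNCCAC were in 1 window each, against 7.15% and 1.24% of all windows. The LXR element, searched as AGGTCA, any NNNN and AGGTCA again, was in none of the 12 and in 0.0152% of all. A match is a string of letters and not a measured binding site, and a window without one says only that these letters are not in it.

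**Figure D1:**
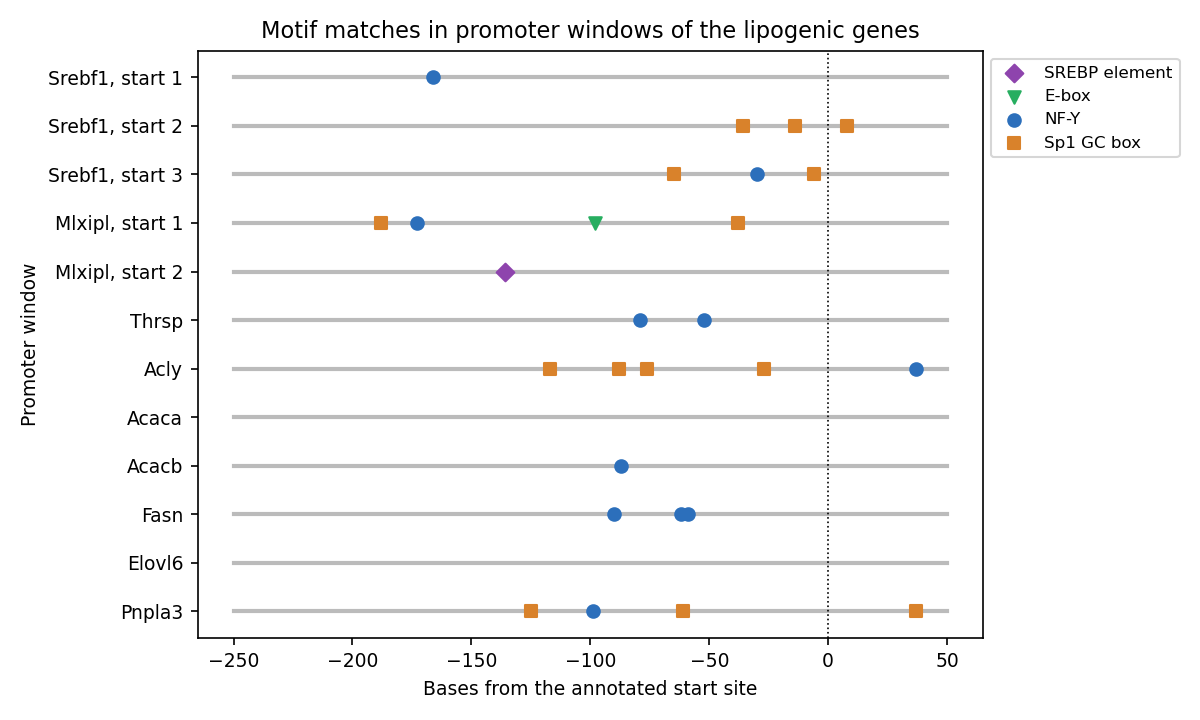
Positions of exact motif matches in the promoter windows of the lipogenic genes, in bases from the annotated start (dotted line), with 1 grey line per window and 1 marker per match. NF-Y matches lie in 8 of the 12 windows, and the E-box and SREBP element appear only in Mlxipl.

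Thbs2 was the target of the hairpin. The CMV controls held 1.27 and 0.922 FPKM and the hairpin libraries 0.695 and 0.614. The αSMA controls held 1.37 and 1.47 FPKM and the hairpin libraries 0.85 and 1.14. The groups did not overlap in either arm, as was so for 42% of tested features in the CMV arm and 74.9% in the αSMA arm. The difference did not pass in limma after Benjamini-Hochberg adjustment (adjusted p = 0.600 in the CMV arm, in a fit without the filter, and 0.269 in the αSMA arm), and the exact two-sided permutation p was 0.333 in each arm, the smallest that 2 libraries against 2 allow.

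The libraries of the αSMA hairpin differed from their controls over many features. Transcripts of the mitochondrial genome made up 12.1% to 12.2% of the FPKM sum in the αSMA controls and 23.1% to 24.6% with the hairpin, and 13.3% to 15.8% in the CMV libraries. In the αSMA arm 36.1% of 13012 tested features passed an adjusted p of 0.05, and in the CMV arm 0.0183% of 10916. Of the marker lists of other cells, that of adipocytes, which also make fatty acids, had Adipoq, Plin1, Retn, Lep and Cfd at 0 in all 4 CMV libraries. In the αSMA libraries Adipoq was at most 0.04 FPKM, Plin1 at most 0.02 and Retn at most 0.05. Fabp4 and Cidec of the same list were present, Fabp4 at 6.38 to 11.1 FPKM in the CMV libraries. For αSMA, Fabp4 held 84.09 and 84.13 FPKM in the controls and 38.67 and 29.68 with the hairpin, and Cidec ranged from 4.21 to 33.63 FPKM. In bulk liver, fewer cells of a type and less RNA per cell cannot be told apart.

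In the CMV controls the genes ranked Scd1, the stearoyl-CoA desaturase, then Thrsp, Mlxipl, Srebf1, Acly, Fasn, Elovl6, Acaca, Acacb and Pnpla3 by mean FPKM, from 1033 ± 461 to 2.25 ± 0.187 (SD, n = 2). Mlxipl (62.9 and 85.7 FPKM) overlapped there with Srebf1 (68.2 and 74.1) and with Acly (56.0 and 67.5), while both Srebf1 values lay above both Acly values. The αSMA controls ranked Scd1, Acly, Mlxipl, Fasn, Srebf1, Acaca, Acacb, Thrsp, Elovl6 and Pnpla3, from 366 ± 72.0 to 0.375 ± 0.0212 FPKM (SD, n = 2). Neighbours in this order from Acly to Acaca overlapped in their single values, as did Acacb and Thrsp. Thrsp ranked 8 of 10 in the αSMA controls and 2 of 10 with the αSMA hairpin, and 2 and 2 in the CMV groups. Its rank in the CMV controls rested on replicate 1 (198.5 FPKM). In control replicate 2 it stood at 51.4 FPKM, below Mlxipl, Srebf1 and Acly. Levels were not tested across the tables, which were normalised separately.

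**Figure D2:**
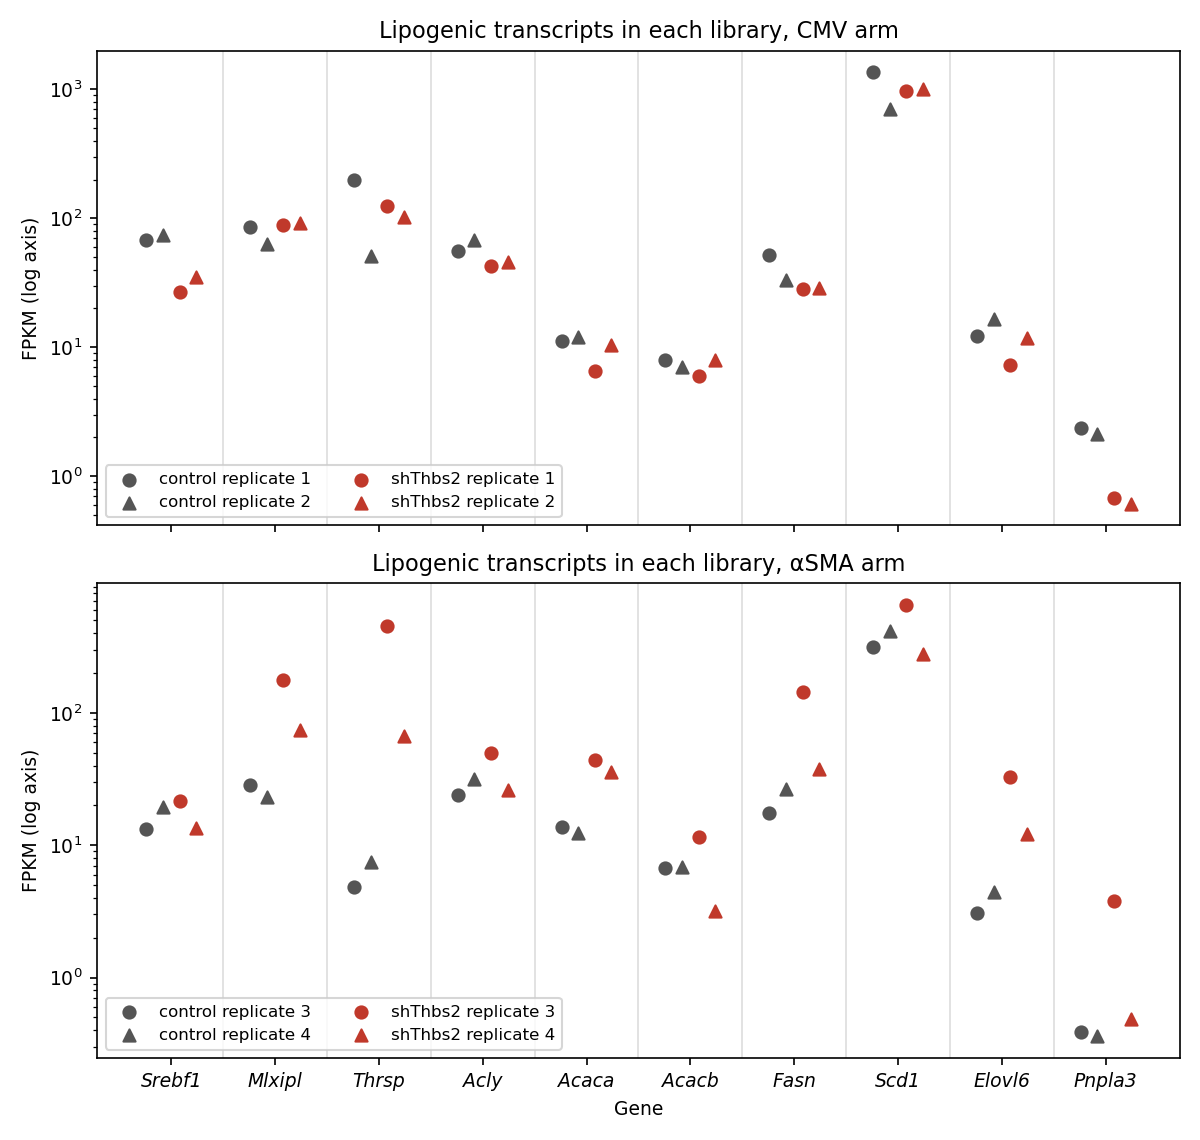
FPKM of each lipogenic gene in each library on a log axis, with the CMV arm above and the αSMA arm below. Grey marks are controls, red marks carry the hairpin, and circles and triangles are the replicates. In the αSMA arm the circle of shThbs2 replicate 3 lies above the triangle of replicate 4 for all 10 genes.

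Srebf1 encodes the SREBP-1 transcription factors, which drive lipogenic enzyme genes under insulin. The CMV controls held 68.2 and 74.1 FPKM and the hairpin libraries 26.9 and 35.1 FPKM. Both hairpin libraries lay below both controls. The mean differed by -56.4%, but the log2 change of -1.18 (SE 0.163, 95% interval -1.58 to -0.78) had a limma adjusted p of 0.137 over all features and did not pass. It passed when control replicate 1 or control replicate 2 was left out (adjusted p = 0.0275 and 0.0438, with the lone control assumed to vary like the other group). The αSMA controls held 13.28 and 19.40 FPKM and the hairpin libraries 21.46 and 13.40 FPKM. The groups overlapped, and the log2 change was 0.08 (SE 0.288, 95% interval -0.65 to 0.80, limma adjusted p = 0.852). Its sign turned to -0.12 when libraries were scaled to the same FPKM sum without mitochondrial transcripts. The gene-level FPKM does not separate the SREBP-1a and SREBP-1c transcripts, and 109 exonic bases overlap Rai1 on the opposite strand.

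Mlxipl encodes ChREBP, the factor that answers to glucose and fructose metabolites. Its values were 85.7 and 62.9 FPKM for the CMV controls against 88.3 and 91.7 FPKM for the hairpin. The groups were apart by a narrow margin, and the log2 change of 0.29 (SE 0.172) did not pass (limma adjusted p = 0.612). Under the αSMA vector Mlxipl rose from 28.47 and 23.03 FPKM to 176.76 and 74.50 FPKM. Both hairpin libraries exceeded both controls, and the mean was 4.88-fold higher. The log2 change was 2.12 (SE 0.415, 95% interval 1.07 to 3.17, limma adjusted p = 0.0191). Mlxipl shares 235 exonic bases with the antisense gene Gm43500, and reads of the 2 strands may not have been told apart.

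Thrsp encodes Spot 14, a small protein that follows thyroid hormone and carbohydrate and promotes fatty acid synthesis. It had the widest spread of the set. The CMV controls held 198 and 51.4 FPKM and the hairpin libraries 126 and 102 FPKM. Both hairpin values lay between the controls, and the log2 change was 0.16 (SE 0.571, limma adjusted p = 0.952). Without control replicate 1 it became 1.12 and passed (adjusted p = 0.0249), and over the alternatives it ran from -0.80 to 1.12. The αSMA controls held 4.86 and 7.51 FPKM and the hairpin libraries 457.14 and 66.96 FPKM. Both hairpin libraries exceeded both controls, one by far more than the other, and Thrsp rose by 4.64 on the log2 scale (SE 0.873, 95% interval 2.44 to 6.85, limma adjusted p = 0.0175). The mean was 42.4-fold higher, a ratio set mainly by replicate 3.

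Acly encodes ATP citrate lyase, which releases acetyl-CoA from citrate in the cytosol. Its values were 56.0 and 67.5 FPKM for the CMV controls against 42.7 and 45.9 FPKM for the hairpin. The groups did not overlap, and the log2 change of -0.46 (SE 0.144) had a limma adjusted p of 0.397. For the αSMA vector the controls held 23.89 and 31.49 FPKM against 49.69 and 26.16 FPKM for the hairpin. The control values fell on both sides of hairpin replicate 4, and the log2 change was 0.38 (SE 0.332, limma adjusted p = 0.391).

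The acetyl-CoA carboxylases Acaca and Acacb make malonyl-CoA, which in the cytosol feeds Fasn and at the mitochondrion restrains fatty acid uptake for oxidation. Acaca stood at 13.66 and 12.45 FPKM for the αSMA controls against 44.17 and 35.52 FPKM for the hairpin. The replicates of each group lay close together and the groups far apart, and the log2 change was 1.53 (SE 0.172, 95% interval 1.10 to 1.97, limma adjusted p = 0.00735). Acaca had the lowest adjusted p of the set in this arm and the mean was 3.05-fold higher. With the CMV vector the controls held 11.1 and 12.0 FPKM and the hairpin libraries 6.56 and 10.4 FPKM, a log2 change of -0.43 (SE 0.214, limma adjusted p = 0.558).

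Acacb, the carboxylase at the mitochondrion, passed in neither arm. Its values were 6.69 and 6.84 FPKM for the αSMA controls against 11.64 and 3.21 FPKM for the hairpin. Hairpin replicate 3 lay above both controls and replicate 4 below both. The log2 change was -0.09 (SE 0.506, limma adjusted p = 0.899), while the ratio of the means was 1.10. Without shThbs2 replicate 4 it was 0.70 and passed (adjusted p = 0.0435), and without replicate 3 it was -0.88 (adjusted p = 0.0540). With the CMV vector it stood at 8.02 and 7.07 FPKM without and 5.97 and 7.99 FPKM with the hairpin, and the groups overlapped (log2 change -0.11, SE 0.173, limma adjusted p = 0.869).

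Fasn encodes fatty acid synthase, which builds palmitate. The αSMA controls stood at 17.41 and 26.76 FPKM and the hairpin libraries at 143.32 and 37.65 FPKM. Both hairpin libraries were higher than both controls, but the log2 change of 1.72 (SE 0.627, 95% interval 0.14 to 3.31) had a limma adjusted p of 0.0825 and did not pass. It passed in the joint model of 8 libraries (adjusted p = 0.0227) and without shThbs2 replicate 4 (log2 change 2.67, adjusted p = 0.0306). Fasn in the CMV arm stood at 52.1 and 33.5 FPKM without and 28.1 and 29.0 FPKM with the hairpin. The groups were apart, the log2 change was -0.54 (SE 0.216, limma adjusted p = 0.482), and without control replicate 2 it was -0.85 and passed (adjusted p = 0.0438).

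Elovl6 elongates palmitate to stearate. Under the αSMA vector it rose from 3.05 and 4.45 FPKM to 32.79 and 12.14 FPKM. Both hairpin libraries exceeded both controls, the mean was 5.99-fold higher, and the log2 change was 2.17 (SE 0.459, 95% interval 1.00 to 3.33, limma adjusted p = 0.0227). Without shThbs2 replicate 3 the log2 change was 1.48 and no longer passed (adjusted p = 0.0569). The CMV controls stood at 12.2 and 16.5 FPKM and the hairpin libraries at 7.33 and 11.8 FPKM, and the groups were barely apart (log2 change -0.56, SE 0.248, limma adjusted p = 0.523).

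Scd1 introduces the double bond of oleate. The αSMA controls stood at 314.62 and 416.49 FPKM and the hairpin libraries at 655.94 and 277.69 FPKM. The hairpin values fell on either side of the controls, and the log2 change was 0.24 (SE 0.427, 95% interval -0.84 to 1.32, limma adjusted p = 0.681). The CMV controls stood at 1359 and 707 FPKM and the hairpin libraries at 970 and 1005 FPKM. The hairpin libraries lay between the controls, and the log2 change was 0.01 (SE 0.291, 95% interval -0.70 to 0.72, limma adjusted p = 0.996). Scd1 had the CMV change closest to 0 of the set, within a wide interval.

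Pnpla3 encodes adiponutrin, a lipid droplet protein whose transcription in mouse liver follows SREBP-1c and ChREBP. The CMV controls held 2.38 and 2.12 FPKM and the hairpin libraries 0.672 and 0.611 FPKM. Both groups were tight and apart, and the control mean was 3.51-fold higher. Only the controls brought Pnpla3 to the filter in the CMV arm, since both hairpin values lay under 1 FPKM. The log2 change of -0.99 (SE 0.153, 95% interval -1.36 to -0.61) had a limma adjusted p of 0.158, and it did not pass under any alternative run. Pnpla3 in the αSMA arm stood at 0.39 and 0.36 FPKM without and 3.81 and 0.49 FPKM with the hairpin. It reached the filter only through shThbs2 replicate 3, and the log2 change was 0.96 (SE 0.549, limma adjusted p = 0.216). Its exons share 105 bases with Gm49513 on the same strand.

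**Figure D3:**
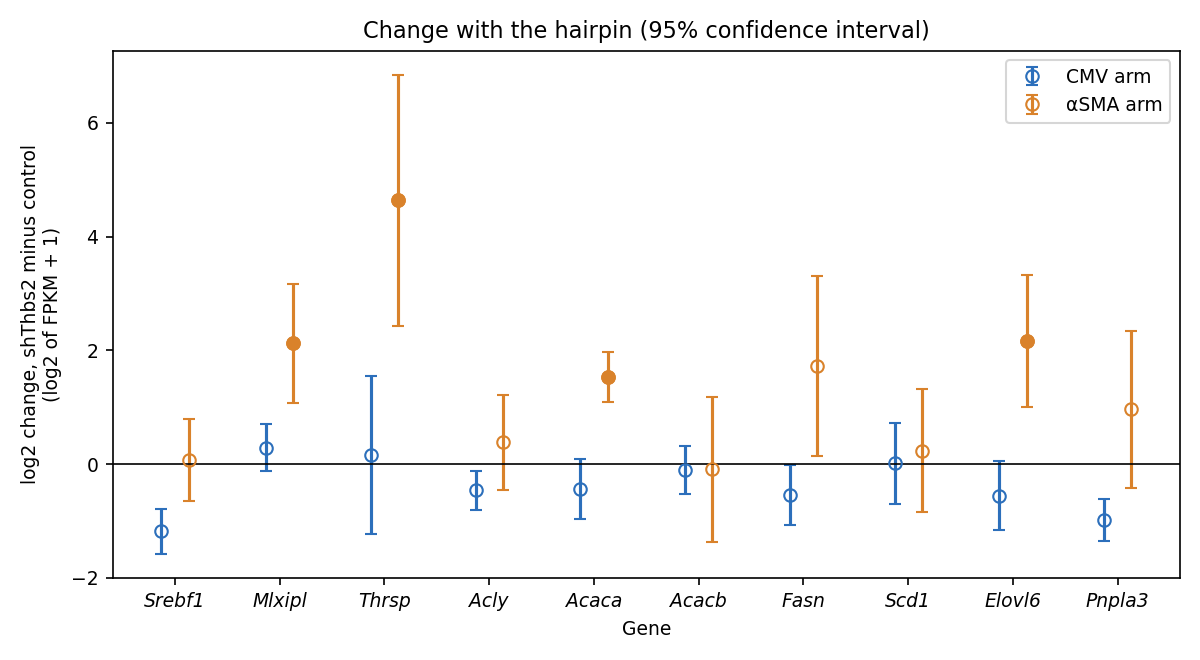
Log2 change of each lipogenic gene with the hairpin, on log2(FPKM + 1), with 95% confidence intervals from limma. Filled circles passed an adjusted p of 0.05. The 4 filled circles are Mlxipl, Thrsp, Acaca and Elovl6 in the αSMA arm.

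Over the set, none of the 10 genes passed in the CMV arm, where 0.0183% of all features did. At an unadjusted limma p under 0.05, 0 were higher and 4 were lower (Srebf1, Acly, Fasn and Pnpla3), against 5.73% and 4.47% of all features. Groups did not overlap for 7 genes, of which 6 were lower, against 42% of all features apart and 17.5% apart and lower. The log2 change was below 0 for 7 of 10 genes, against 43.7% of all features, and the median was -0.45, beside 0.03 over all features. Pnpla3 is in each of these counts of lower genes. It reached the filter in this arm only through the controls, where it is high, so its place in them adds no support. The summed FPKM of the hepatocyte markers (9 of 10 in the table, led by Alb, Apoa1 and Ttr) also moved with the group in this arm, from 63722 and 63270 in the controls to 47813 and 44192 with the hairpin. Alb made up most of the sum, and the markers split, with a log2 change above 0 for 4 of 9 (Hnf4a, Ass1, Fgb and Serpinc1), a list median of -0.13 and none past the threshold. None of the 9 is at 0. The part of this in the lower lipogenic values was not tested. The summed cholangiocyte markers (7 of 7 in the table, none at 0), mostly Spp1, went from 76.1 and 107 to 51.9 and 59.8. Stellate cell sums went from 109 and 110 to 92.9 and 103, and endothelial sums from 58.6 and 66.6 to 56.5 and 56.0. Adipocyte sums went from 14.1 and 13.8 to 13.4 and 9.39, while Kupffer cell sums overlapped between the groups. The part of these sums in the lipogenic values was likewise not tested.

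In the αSMA arm 4 of the 10 genes passed, all higher, where 36.1% of all features passed, 13.3% higher and 22.8% lower. Groups did not overlap for 6 genes, all higher, against 74.9% of all features apart and 28.7% apart and higher. The log2 change was above 0 for 9 of 10 genes, against 40.8% of all features, and the median was 1.25, beside -0.16 over all features. Pnpla3 is in the counts of genes apart and of genes above 0. It reached the filter in this arm only through shThbs2 replicate 3, so its place in them adds no support. Scaling the libraries to the same FPKM sum without mitochondrial transcripts, or centring them on their medians, left 4 genes past the threshold, with the median of all features at -0.33 and 0.05. The hepatocyte marker sums overlapped in this arm (41966 and 31054 in the controls, 39495 and 33922 with the hairpin). Those of stellate, Kupffer and endothelial cells overlapped as well. Cholangiocyte sums, made up mostly of Spp1, went from 231 and 323 to 123 and 206. Adipocyte sums, made up mostly of Fabp4 and Cidec, went from 95.2 and 88.5 to 50.6 and 63.7. The part of these in the lipogenic values was not tested.

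The calls of the αSMA arm rested on few libraries. Without control replicate 3 or control replicate 4, 0 of the 10 genes passed. The number of all features past the threshold went from 1729 higher and 2962 lower to 15 and 38 without replicate 3, and to 10 and 36 without replicate 4. Without shThbs2 replicate 3 the log2 change of Elovl6 went from 2.17 to 1.48. Without shThbs2 replicate 4 that of Fasn went from 1.72 to 2.67. With no filter on low values, Acaca alone passed (adjusted p = 0.0396 in limma), where 759 of all features passed higher and 1084 lower.

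The replicates of the αSMA hairpin stood apart for these genes. shThbs2 replicate 3 was higher than replicate 4 for 10 of 10 genes, against 35.3% of all features. It was at least 2-fold higher, on log2(FPKM + 1), for 7 of 10, against 1.53% of all features, and replicate 4 was so for 0 of 10, against 1.8%. Thrsp was 6.83 times higher in replicate 3, Fasn 3.81 times, Acacb 3.63 times and Pnpla3 7.78 times. Pnpla3 reached the filter only through shThbs2 replicate 3, so its ratio and its place in these counts add no support. For Thrsp 0.338% of all features had a larger difference between these replicates, and for Fasn 0.761%. Acaca, at 1.24 times, was the most even of the set. The summed markers of hepatocytes, mostly Alb, stood at 39495 in replicate 3 and 33922 in replicate 4. Stellate cell markers, mostly Dcn, summed to 270 and 410. The part of either in the gap between these replicates was not tested.

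The CMV controls also differed among themselves. Control replicate 1 held 3.86 times the Thrsp of replicate 2, 1.92 times the Scd1 and 1.56 times the Fasn. Thrsp was the sole gene of the set at least 2-fold higher in replicate 1, as 0.999% of all features were, and 0.385% of all features differed more. Yet Srebf1, Acly, Acaca and Elovl6 were higher in control replicate 2, so the controls were not ordered alike over the set. No lipogenic gene differed 2-fold between the CMV hairpin libraries, where 0.632% of all features were so in replicate 1 and 0.266% in replicate 2. None did so between the αSMA controls, where 1.31% were higher in replicate 3 and 1.08% in replicate 4. The residual SD of the fit exceeded the median of all features for 8 of 10 genes in the CMV arm and for 9 of 10 in the αSMA arm.

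**Figure D4:**
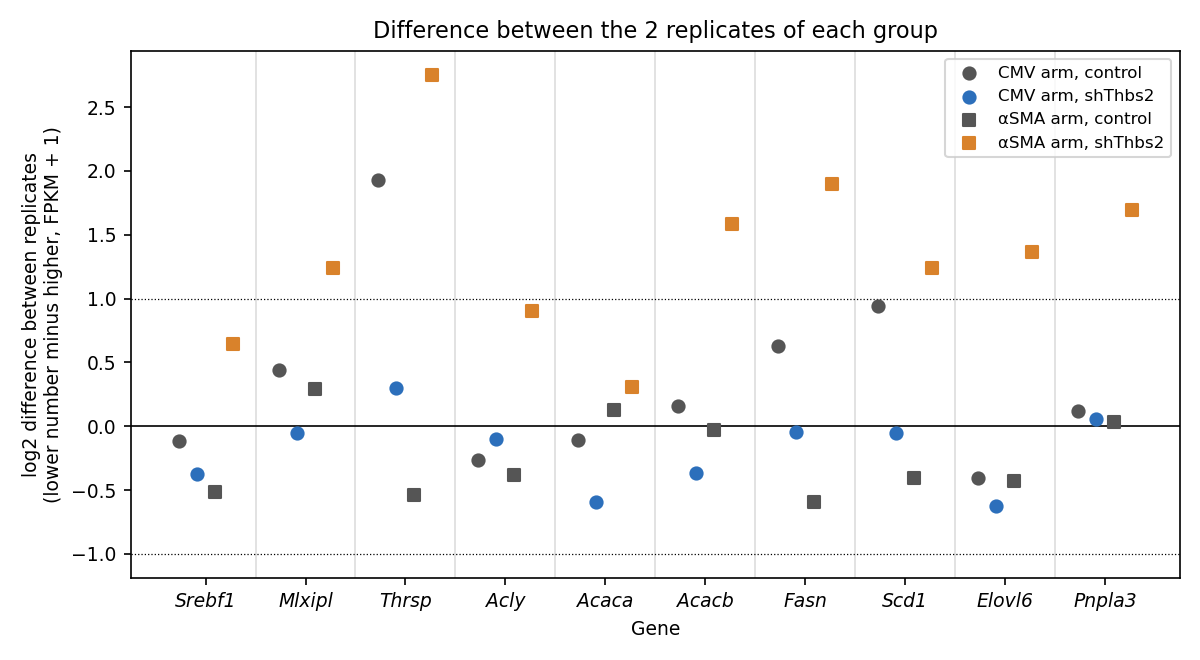
Log2 difference between the replicates of each group, lower replicate number minus higher, on log2(FPKM + 1). Dotted lines mark a 2-fold difference. The orange squares of the αSMA hairpin lie above 0 for all 10 genes and above the dotted line for 7.

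The difference between the arms was tested in 1 limma model of the 8 libraries, over the 10245 features tested in both. The αSMA change exceeded the CMV change for 6 of 10 genes. Of all features 25.1% passed, 7.71% in that direction and 17.4% in the other. All 10 differences were above 0, against 36.6% of all features, and the median was 1.89 beside -0.22. Acaca differed by 1.97 (SE 0.289, limma adjusted p = 0.0053), and it passed in every alternative run. Elovl6 differed by 2.72 (SE 0.573, limma adjusted p = 0.0140), Thrsp by 4.48 (SE 1.17, adjusted p = 0.0269), Mlxipl by 1.83 (SE 0.487, adjusted p = 0.0285), Srebf1 by 1.26 (SE 0.353, adjusted p = 0.0336) and Pnpla3 by 1.95 (SE 0.601, adjusted p = 0.0453). Pnpla3 reached the filter only through the controls in the CMV arm and only through shThbs2 replicate 3 in the αSMA arm. Its call and its place among the 10 differences above 0 are thus no support, and with no filter its adjusted p in limma was 0.0841. Without a filter the count of 6 fell to 2, with Acaca among the 2. Of all features, 749 higher and 1559 lower passed in that run.

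The remaining genes did not pass. Fasn missed narrowly (difference 2.26, SE 0.728, limma adjusted p = 0.0515). Acly differed by 0.85 (95% interval -0.03 to 1.72), Scd1 by 0.23 (-1.08 to 1.54) and Acacb by 0.02 (-1.31 to 1.34), with limma adjusted p-values of 0.133, 0.787 and 0.985. For Srebf1 the difference came from a lower value in the CMV arm (-1.18) beside 0.08 in the αSMA arm, and for Acaca from -0.43 and 1.53. The Srebf1 difference was lost without any one of the 8 libraries but shThbs2 replicate 4 of the αSMA arm, and with a replicate block (adjusted p = 0.0603). The Mlxipl and Thrsp differences were lost without CMV control replicate 1, either CMV hairpin library or either αSMA control. The Pnpla3 difference was lost without these and without CMV control replicate 2, and the Elovl6 difference without CMV shThbs2 replicate 1 (adjusted p = 0.0521). Leaving out single libraries brought the count from 6 to between 1, without CMV shThbs2 replicate 1, and 9, without αSMA shThbs2 replicate 4. It was 2 without CMV control replicate 1, CMV shThbs2 replicate 2, αSMA control replicate 3 or αSMA control replicate 4, and 4 without CMV control replicate 2.

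As a mean over both arms in the same model, Thrsp (2.40), Mlxipl (1.21) and Acaca (0.55) were higher, with limma adjusted p-values of 0.0159, 0.0081 and 0.0209, and Srebf1 was lower (-0.55, adjusted p = 0.0410). Each of these genes also passed the test of a difference between the arms, so the means pool unlike changes. The CMV and αSMA changes were 0.16 and 4.64 for Thrsp and 0.29 and 2.12 for Mlxipl. For Acaca they were -0.43 and 1.53, and for Srebf1 -1.18 and 0.08. Of all features 33.3% passed for the mean, 12.4% higher and 20.9% lower. The Srebf1 call was lost with a replicate block (adjusted p = 0.0685) and without any 1 library other than αSMA control replicate 3 and αSMA shThbs2 replicate 3. The Thrsp call was lost without CMV shThbs2 replicate 1 or αSMA control replicate 3. The Acaca call was lost without CMV shThbs2 replicate 2, either αSMA control or αSMA shThbs2 replicate 3. The count of higher genes ran from 1, without αSMA control replicate 3, to 6, without αSMA shThbs2 replicate 4. Pnpla3 averaged -0.01, from -0.99 in the CMV arm and 0.96 in the αSMA arm.

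Genes around the pathway were counted in 7 lists of 102 genes, 99 of them tested in each arm. In the CMV arm 0 of 99 passed in either direction, and the median log2 change was 0.01 beside 0.03 over all features. In the αSMA arm 20 passed higher and 20 lower, against 13.3% and 22.8% of all features, with a median of 0.01 beside -0.16. They numbered 0 and 0 without αSMA control replicate 3 or 4, 7 and 6 without shThbs2 replicate 3, and 20 and 16 without shThbs2 replicate 4.

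Of the glucose-response targets of ChREBP, 7 of 12 tested genes rose and 0 fell in the αSMA arm, with a median of 1.37, against 13.3% of all features higher. G6pc, the catalytic subunit of glucose-6-phosphatase, rose from 20.25 and 26.20 FPKM to 242.36 and 290.34 FPKM (log2 change 3.47, limma adjusted p = 0.00253). Its hairpin replicates were close together, unlike those of Thrsp. Slc2a2, the glucose transporter of hepatocytes, went from 15.71 and 6.94 FPKM to 104.11 and 61.59 FPKM (log2 change 2.82, limma adjusted p = 0.0118). Txnip, a thioredoxin-binding protein, rose by 1.07 on the log2 scale (limma adjusted p = 0.0138). Khk, Tkfc and Rgs16 also passed and are named here after their values were seen. Rgs16, a regulator of G protein signalling, stood at 0.50 and 0.62 FPKM for the controls and at 36.21 and 6.76 FPKM for the hairpin. It reached the filter only through the hairpin group, so its place among the 7 rests on the libraries where it is high. Replicate 3 with the hairpin was at least 2-fold above replicate 4 for 4 of the 12, and replicate 4 above replicate 3 for 1. Without shThbs2 replicate 3, 3 of the 12 passed. For CMV 0 passed and the median was -0.04.

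Of the genes around SREBP-1c activation, 1 of 20 rose and 6 fell in the αSMA arm, with a median of -0.30, against 22.8% of all features lower. Usf2, a partner factor at E-boxes, fell in the mean from 37.5 FPKM to 15.9 (log2 change -1.19, limma adjusted p = 0.00768). Sp1, which binds GC boxes, fell by 1.23 on the log2 scale, and Scap, the escort of SREBP, fell by 0.75 (limma adjusted p = 0.00995 and 0.0254). Irs2, an adaptor of the insulin receptor, was the gene that rose, with means of 3.27 FPKM without and 9.17 with the hairpin (log2 change 1.24, limma adjusted p = 0.0102). For CMV 0 of 21 passed and the median was 0.02.

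The supply of acetyl-CoA and NADPH was mixed in the αSMA arm, with 4 of 14 higher and 3 lower. Of all features 13.3% passed higher and 22.8% lower. G6pdx, which opens the pentose phosphate pathway, fell in the mean from 13.8 FPKM to 2.26 (log2 change -2.18, limma adjusted p = 0.00471). Pgls, the next enzyme of that pathway, rose by 0.77 (limma adjusted p = 0.0215). Pdhb, a pyruvate dehydrogenase subunit, rose by 0.94 and Pcx, pyruvate carboxylase, fell by 0.74 on the log2 scale (limma adjusted p = 0.0178 and 0.0213).

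Among the other desaturases, elongases and acyl-CoA synthetases 2 of 20 were higher and 3 lower in the αSMA arm. The shares of all features were 13.3% and 22.8%. Acsl5, an acyl-CoA synthetase, fell by 1.19, Fads6 fell by 1.66 and Elovl2, an elongase of polyunsaturated fatty acids, fell by 0.78 on the log2 scale (limma adjusted p = 0.0105, 0.0143 and 0.0294). Mecr, of mitochondrial fatty acid synthesis, rose by 0.85 (limma adjusted p = 0.0138). None passed for CMV, where Scd2 had means of 7.18 FPKM without and 2.50 with the hairpin, and Elovl3 of 3.47 and 32.7 FPKM (limma adjusted p = 0.133 and 0.158).

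In the glycerolipid synthesis list 3 of 14 were higher and 4 lower in the αSMA arm, against 13.3% and 22.8% of all features. Dgat2, which makes triglyceride, fell in the mean from 150 FPKM to 69.5 (log2 change -1.11, limma adjusted p = 0.0160). Cds2, Abhd5 and Pcyt1a fell by 1.74, by 1.04 and by 0.82 on the log2 scale (limma adjusted p = 0.00563, 0.0109 and 0.0142). Abhd5, like Pnpla2 of the same list, acts in triglyceride breakdown and not in synthesis. For CMV, Lpin1, a phosphatidate phosphatase, had means of 6.50 FPKM for the controls and 32.2 for the hairpin without passing (limma adjusted p = 0.222).

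LXR targets outside fatty acid synthesis had 1 of 9 higher and 1 lower in the αSMA arm, against 13.3% and 22.8% of all features. Lpcat3 rose by 1.10, and Angptl8, an inhibitor of lipoprotein lipase, fell by 0.97 (limma adjusted p = 0.0180 and 0.0278). For CMV 8 of the 9 had a log2 change below 0, against 43.7% of all features. The median was -0.35, beside 0.03 over all features, and none of the 9 passed. Lpl had means of 58.7 FPKM without and 23.1 with the hairpin, and Angptl8 190 and 65.1 FPKM (limma adjusted p = 0.0926 and 0.102). The control of AMPK and of the carboxylases had 2 of 10 higher and 3 lower in the αSMA arm. For all features these shares were 13.3% and 22.8%. Prkaa1, a catalytic subunit of AMPK, fell by 0.81 and Mlycd, which degrades malonyl-CoA, rose by 0.75 (limma adjusted p = 0.0159 and 0.0237).

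**Figure D5:**
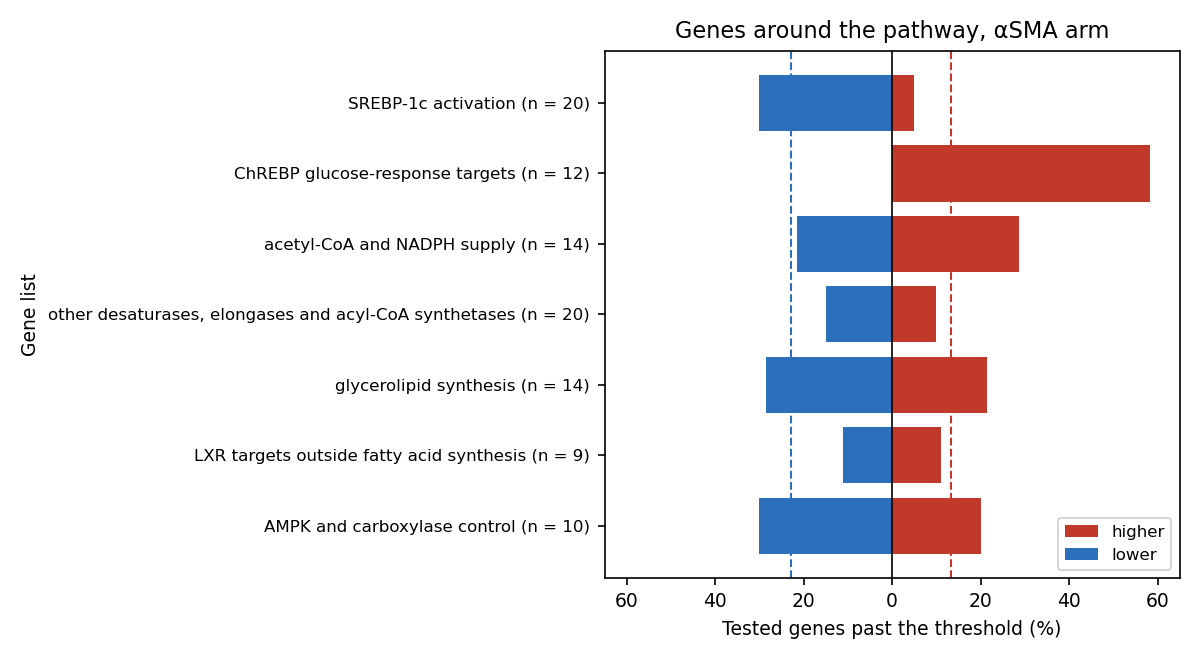
Share of tested genes of each list that passed an adjusted p of 0.05 in the αSMA arm, lower to the left and higher to the right. Dashed lines mark the shares of all features, 22.8% lower and 13.3% higher. The ChREBP targets hold 7 of 12 higher and 0 lower.

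The likeness of patterns was described by the root mean square distance between log2(FPKM + 1) values centred within each arm, over the 8 libraries and 10244 ranked features. The libraries are shared by all genes compared, so the distances are a description. Srebf1 was nearest to Dhcr7, the last enzyme of cholesterol synthesis (distance 0.182), then to Lgals1, Dapk2, Pcolce and Smoc2. Dhcr7 stood at 64.6 and 79.7 FPKM for the CMV controls and at 33.5 and 34.5 for the hairpin. Of the other lipogenic genes Acly ranked 34th for Srebf1, while Fasn ranked 9460th and Thrsp 10233rd.

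Fasn was nearest to Cyp2c55 (distance 0.190), Dbp, Sucnr1, Ttc39c and Psen2. Dbp, a transcription factor under the circadian clock, stood at 2.21 and 2.95 FPKM for the αSMA controls and at 24.31 and 3.58 FPKM for the hairpin, so it too was far higher in shThbs2 replicate 3 than in replicate 4. Elovl6 ranked 12th for Fasn, Pnpla3 18th and Mlxipl 41st. Srebf1 ranked 1606th, behind 7 of the other lipogenic genes.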

How the data were processed

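Poly(A)-selected RNA of 8 mouse livers was sequenced. Each arm has its own deposited table of FPKM values, which the authors normalised apart from the other. The tools named in the submitters' processing notes are HISAT2 2.1.0, Bowtie2 2.3.5, HISAT and Cufflinks, with GRCm38, and their roles are not given there. Without read counts the depth is unknown, no counting interval is given, and low values are less certain by an unknown amount. In the αSMA table, low values are rounded to 2 decimals.

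Each arm was fitted alone with limma 3.58.1 in R 4.3.3 on log2(FPKM + 1), which understates changes of low genes. The fit used a mean per group, empirical Bayes with a trend, two-sided tests, a minimum mean of 1 FPKM, and Benjamini-Hochberg adjustment over all features (threshold 0.05), with 2 residual degrees of freedom. Arm difference and mean effect came from 1 limma model of 8 libraries. The model was tested on simulated data with 200 features changed by 2 on the log2 scale. All 200 were called in each arm, with 14 unchanged features called in the CMV arm and 31 in the αSMA arm. The simulated spread was that of a typical feature of like level. Most lipogenic genes varied more than the median feature, so recovery at their spread was not tested. Libraries were taken as 1 animal each, otherwise p-values measure only the spread between them.

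All 10 genes and Thbs2 are named, with up to 4 passing genes of each companion list by smallest p, or the 2 with the smallest p where none passed (some of these are not reported here), and the 5 features nearest to Srebf1 and to Fasn. The genes and lists were chosen with earlier results of these data known. Alternatives were a pseudocount of 0.1, no filter, rescaling without mitochondrial transcripts, median centring, a replicate block, the joint model, and leaving out each library. Promoters are RefSeq sequences on GRCm38.p6, and the annotation is GENCODE M21. Scd1 has no promoter window here.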

Additional observations from a re-analysis of the deposited data

Results flagged for a closer look

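For 6 lipogenic genes the change with the hairpin differed between the arms by the test of the difference itself, in the joint limma model with Benjamini-Hochberg adjustment. On the log2 scale the αSMA change exceeded the CMV change by 1.26 for Srebf1, 1.83 for Mlxipl, 4.48 for Thrsp, 1.97 for Acaca, 2.72 for Elovl6 and 1.95 for Pnpla3. Pnpla3 reached the filter only through shThbs2 replicate 3 in the αSMA arm and only through the controls in the CMV arm. With no filter its adjusted p in limma was 0.0841, so its call adds no support. It was not the sole call lost, since the count of 6 was 2 with no filter, with Acaca among the 2. Of all features, 25.1% passed this test. With 2 libraries a group, no test for an outlying sample was made.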

How the results depend on the processing

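Lipogenic counts past the threshold held within 1.5 times of the reported ones except as follows. In the αSMA arm 1 of 4 remained past it with no filter, in the difference between arms 2 of 6 with no filter, and in the mean effect the lower count went from 1 to 0 with no filter, median centring or a replicate block. Over all features, the CMV counts of 2 higher and 0 lower were 0 higher with no filter, 4 and 1 with rescaling, 14 and 3 with a replicate block, and 1 and 1 in the joint model. The αSMA counts were 759 higher and 1084 lower with no filter and 1853 lower with median centring. The difference counts were 2760 lower with rescaling, and 1266 higher and 923 lower with median centring. Companion genes numbered 5 higher and 9 lower with no filter and 12 lower with median centring in the αSMA arm, and 2 higher with a replicate block in the CMV arm.

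Leaving out single libraries gave these ranges, higher and lower. In the CMV arm they were 0 to 1 and 0 to 2 lipogenic genes, 0 to 3 and 0 to 4 companions, and 6 to 87 and 4 to 65 of all features. In the αSMA arm they were 0 to 7 and 0 lipogenic genes, 0 to 20 and 0 to 16 companions, and 10 to 1416 and 36 to 2721 features. For the difference they were 1 to 9 and 0 genes, and 288 to 907 and 457 to 2276 features. For the mean effect they were 1 to 6 and 0 to 3 genes, and 693 to 1337 and 1061 to 2486 features. Without αSMA shThbs2 replicate 4 the Acacb change in the αSMA arm turned to 0.70 and the mean effect of Pnpla3 to 0.41, beside -0.88 and -0.43 without replicate 3. What lay behind these shifts was not tested. Leaving out a library also leaves fewer residual degrees of freedom, and the part of this in the lost calls was not tested.

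Replicate numbers are shared within an arm. Same-numbered libraries deviated together with a correlation of 0.0400 in the CMV and 0.00134 in the αSMA arm. Pairing by number was not used in the main fits, and 2 libraries a group cannot settle whether it holds. With the replicate block 4 lipogenic genes passed in the αSMA arm and 5 in the difference.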
